A study of Mus musculus with 14 samples.

Results

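The genes described here are components and receptors of the complement system: the C1q chains C1qa, C1qb and C1qc, the activation proteins Cfb and Cfp, the terminal component C7, the anaphylatoxin receptors C3ar1 and C5ar1, and the inhibitor Serping1. They were chosen by name, as probe sets whose array annotation gives one of 10 listed symbols and no other. Of the 10 listed genes, 9 were measured, each by 1 probe set, among 19938 genes in all. C3 was not analysed here.

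The muscle was the plantaris, a calf muscle, of male C57BL/6J mice aged 25 months. It had been put under mechanical overload by synergist ablation, an operation that takes out the neighbouring gastrocnemius and soleus so that the plantaris carries their work. Days 1, 3, 5, 7, 10 and 14 of overload were set against day 0. All animals had the same strain, sex and age, and all are labelled healthy. Each day had 2 Affymetrix Mouse Gene 1.0 ST arrays, one of a pool of left and one of a pool of right plantaris muscles of 6 animals. Because animals were pooled, differences between animals of 1 day cannot be seen, and a day and its set of animals cannot be told apart. No array is labelled sham-operated, so surgery and load cannot be told apart either. Whether the left and right pools of a day came from the same 6 animals is not stated outright; they were read as such. The p-values then measure the spread between sides and arrays of a day, which may in part be technical. Young muscle was not analysed here.

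Complement is a cascade of plasma and tissue proteins that marks cells, debris and immune complexes for removal. In the classical pathway, C1q binds its targets and activates the proteases C1r and C1s, which cleave C4 and C2. In the alternative pathway, factor B, held in place by properdin, forms the protease that cleaves C3 on a surface. Both pathways release the small fragments C3a and C5a, which attract and activate myeloid cells through their receptors, and both can end in the membrane attack complex, to which C7 belongs. Much plasma complement comes from the liver, while macrophages make C1q and properdin within tissues, and in injured muscle complement takes part in recruiting leukocytes and clearing damaged fibres.

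The sequences just upstream of the start of 4 members are shown so that genes with like and unlike time courses can be set side by side: C1qb and C1qc, which are neighbours and had like courses, C3ar1, which had the largest difference of the set from day 3 on, and C7, which was lower on every day. They come from RefSeq on build GRCm38.p6, where 7 of the 10 listed genes had an entry, 6 of them among the 9 measured. Each is written 5′ to 3′ on the minus strand, on which all 4 genes lie. Each window ends at the base before the annotated gene start, and capitals mark a match to one of 3 motifs searched on both strands. The motifs were GAGGAA, the core of sites of the myeloid transcription factor PU.1, TGANTCA, the site of AP-1 factors, and the interferon-stimulated response element, searched as GAAA, any 2 bases and GAAA.
C1qb, chr4:136886201-136886450: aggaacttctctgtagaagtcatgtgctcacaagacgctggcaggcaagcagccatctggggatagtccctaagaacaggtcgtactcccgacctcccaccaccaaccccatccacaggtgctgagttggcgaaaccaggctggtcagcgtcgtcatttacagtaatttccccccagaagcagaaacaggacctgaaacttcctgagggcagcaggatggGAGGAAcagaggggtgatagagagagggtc
C1qc, chr4:136892937-136893164: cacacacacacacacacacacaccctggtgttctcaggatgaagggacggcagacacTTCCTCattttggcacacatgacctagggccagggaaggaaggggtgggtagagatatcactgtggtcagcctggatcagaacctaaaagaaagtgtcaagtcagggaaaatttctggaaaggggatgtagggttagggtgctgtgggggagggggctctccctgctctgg
C3ar1, chr6:122856158-122856407: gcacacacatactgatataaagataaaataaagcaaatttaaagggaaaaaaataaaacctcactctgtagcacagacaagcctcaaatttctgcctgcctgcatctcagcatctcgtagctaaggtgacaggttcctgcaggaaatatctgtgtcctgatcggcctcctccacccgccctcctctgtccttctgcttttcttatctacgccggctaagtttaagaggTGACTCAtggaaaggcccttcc
C7, chr15:5063774-5064023: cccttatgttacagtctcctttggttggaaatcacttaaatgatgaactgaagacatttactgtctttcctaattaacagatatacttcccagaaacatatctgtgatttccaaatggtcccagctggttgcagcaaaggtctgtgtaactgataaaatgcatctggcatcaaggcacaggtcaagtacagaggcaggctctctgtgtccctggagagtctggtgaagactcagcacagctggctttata
The C1qb window held GAGGAA with its nearest base 25 bases upstream of the gene start. The C1qc window of 228 bases held the same letters on the opposite strand, printed as TTCCTC, 166 bases upstream. The C3ar1 window held TGACTCA 16 bases upstream. None of the 3 motifs was found in the 250 bases of the C7 window. Of 32851 promoters in the table, 7639 (23.3%) held GAGGAA, 2217 (6.75%) held TGANTCA and 978 (2.98%) held the interferon-stimulated response element, so a match to GAGGAA is common and says nothing of binding.

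Values below are log2 signals as the submitters deposited them, on which a difference of 1 is a 2-fold change. A gene was called when the Benjamini-Hochberg adjusted p of limma, adjusted over all 19938 genes, was under 0.05. In that fit all 9 members were called by the F test for a difference on any day, a test that called 79.5% of all genes. On day 1, 5 of the 9 members were higher than on day 0 and 2 were lower, against 22.3% higher and 22.6% lower among all genes. From day 3 on, 8 members were higher and 1 was lower on every day. Over the whole array, 24.1% rose and 26.6% fell on day 3, 26.4% and 33.7% on day 5, 26.6% and 36.3% on day 7, 25.9% and 34.3% on day 10, and 22.9% and 30.5% on day 14. With array medians set equal, 18.4% to 21.9% of all genes were higher and 37.3% to 53% lower on days 3 to 14, while the members' counts stayed at 8 and 1 on days 5 to 14 and were 7 and 1 on day 3. The median difference of the 9 members was 0.79 on day 1, 2.71 on days 3 and 5, 2.54 on day 7, 2.32 on day 10 and 2.0 on day 14. The median over all genes lay between -0.14 and 0.04 on these days. In whole muscle, more cells of a type and more RNA per cell cannot be told apart in any of these differences.

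**Figure D1:**
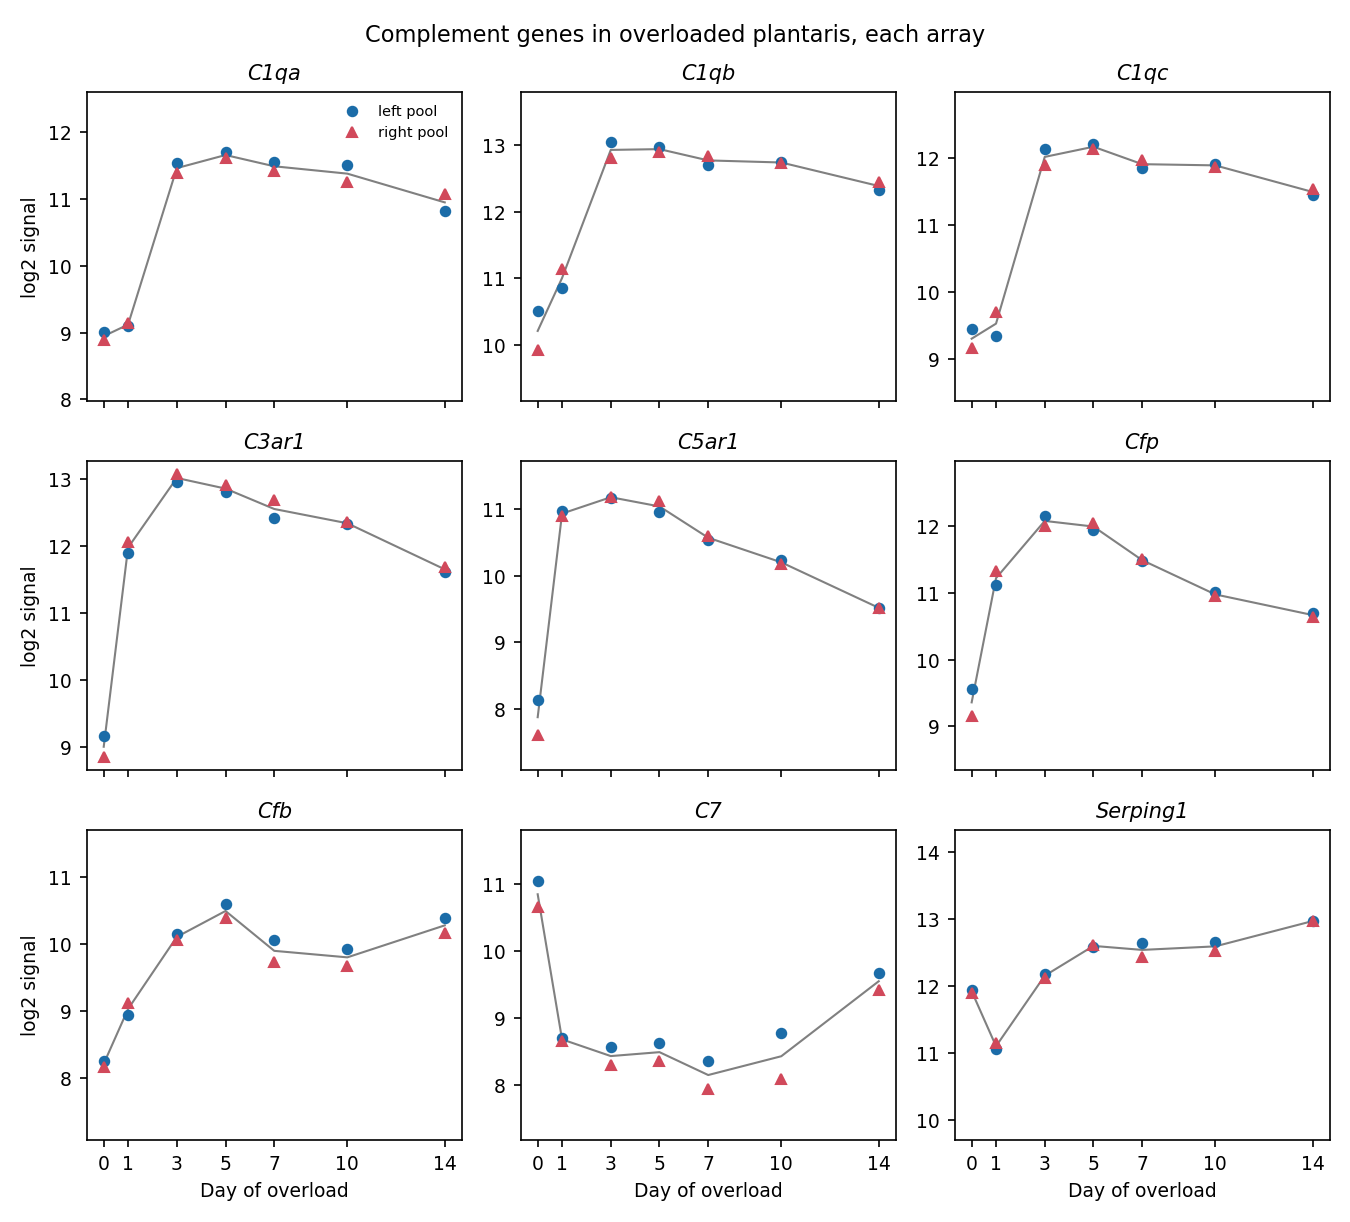
Log2 signal (y axis) of the 9 members by day of overload (x axis), with circles for left pools, triangles for right pools and a line through the mean of both; all panels span the same number of log2 units. Each day has 1 left and 1 right array, C1qa and C1qc stay near their day 0 level on day 1 and C1qb lies 0.79 above it, all 3 C1q chains are high from day 3, C3ar1, C5ar1 and Cfp are high from day 1, and C7 runs below day 0 throughout.

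C1qa, C1qb and C1qc encode the A, B and C chains that together form the C1q molecule. C1qa had log2 signals, left then right, of 9.01 and 8.88 on day 0, 9.09 and 9.14 on day 1, 11.53 and 11.39 on day 3, 11.69 and 11.62 on day 5, 11.55 and 11.42 on day 7, 11.50 and 11.25 on day 10, and 10.82 and 11.07 on day 14. Days 0 and 1 form a low pair and every array from day 3 on lies at least 10.82, with no overlap. C1qa was 0.17 ± 0.11 (SE, 2 arrays each) above day 0 on day 1, which was not called (adjusted p = 0.223), and 2.51 above it on day 3. Its largest difference, 2.71, came on day 5, a 6.54-fold rise (limma adjusted p = 1.8e-09). On day 14 it was 2.0 above day 0, which is 73.9% of the largest difference, and 0.43 below day 10 (adjusted p = 0.031).

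C1qc followed the same course. Its arrays read 9.45 and 9.16 on day 0, 9.35 and 9.71 on day 1, 12.14 and 11.91 on day 3, 12.21 and 12.14 on day 5, 11.85 and 11.98 on day 7, 11.92 and 11.87 on day 10, and 11.45 and 11.55 on day 14. The arrays of days 0 and 1 overlap and all later ones stand above them. The difference on day 1 was 0.22 ± 0.13 (SE, adjusted p = 0.177) and the largest was 2.87 on day 5, a 7.31-fold rise. On day 3 C1qc was 2.49 above day 1 (adjusted p = 7.1e-08), the 23rd largest rise of all genes between those days. The difference of C1qc on day 1 depended on single arrays: without the left pool of day 1 it was 0.40 and called (adjusted p = 0.0298), and without the right pool it was 0.046.

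C1qb was the chain with a called rise on day 1. Its log2 signals were 10.51 and 9.92 on day 0, 10.86 and 11.15 on day 1, 13.04 and 12.81 on day 3, 12.97 and 12.90 on day 5, 12.70 and 12.83 on day 7, 12.75 and 12.72 on day 10, and 12.32 and 12.44 on day 14. Day 1 lies above both arrays of day 0 and below every later array. It was 0.79 ± 0.16 (SE) above day 0 on day 1 (adjusted p = 0.0012), which was 29.1% of its largest difference, against 6.37% for C1qa and 7.83% for C1qc. Without the right pool of day 0, its lower array, the day 1 difference was 0.50, still called. Whether C1qb differed from the other chains on day 1 was not tested. Its largest difference was 2.72 on day 5, and 79.7% of it was left on day 14.

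In the order of their days the C1q chains were alike. For C1qb and C1qc no neighbours among days 5, 3, 7, 10 and 14, ranked from high to low, were called different, and for C1qa the same held for days 5, 7, 3 and 10. Over the 14 arrays the chains correlated with each other at r between 0.977 and 0.995, given as a description, since arrays of 1 day are not independent of each other. The RefSeq table places C1qb, C1qc and C1qa next to each other on chromosome 4.

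C3ar1 encodes the receptor for C3a, a G protein-coupled receptor of macrophages and other myeloid cells. Its log2 signals were 9.15 and 8.84 on day 0, 11.89 and 12.06 on day 1, 12.96 and 13.07 on day 3, 12.81 and 12.91 on day 5, 12.41 and 12.69 on day 7, 12.33 and 12.36 on day 10, and 11.61 and 11.69 on day 14. Every overload array is above both day 0 arrays, and day 14 lies below the arrays of all the other overload days. On day 1 it was 7.88-fold above day 0. On day 3 the difference was 4.02 ± 0.12 (SE), a 16.2-fold rise (adjusted p = 5.1e-10) and the 12th largest of 19938 genes on that day. Days 3, 5, 7 and 10, in falling order, held no neighbours that were called different, while day 10 was above day 1, day 1 above day 14, and day 14 above day 0. On day 14, 66.0% of the largest difference was left.

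C5ar1 encodes the receptor for C5a, which draws neutrophils and macrophages to sites of complement activation. It read 8.14 and 7.62 on day 0, 10.96 and 10.89 on day 1, 11.16 and 11.18 on day 3, 10.95 and 11.12 on day 5, 10.53 and 10.60 on day 7, 10.23 and 10.17 on day 10, and 9.51 and 9.52 on day 14. The top level is held from day 1 to day 5, and the arrays of the later days step down without overlap. The step of 0.37 from day 7 to day 10 was not called (limma adjusted p = 0.195). The difference on day 1 was 3.05 ± 0.13 (SE), an 8.25-fold rise, and 92.6% of the largest difference was present by then. The largest, 3.29 on day 3, was a 9.78-fold rise (adjusted p = 2.4e-09), and day 3 stood 0.24 above day 1, which was not called (adjusted p = 0.146). On day 14 C5ar1 was 1.64 above day 0, with 49.7% of its largest difference left.

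Cfp encodes properdin, the plasma protein that stabilises the alternative pathway convertase. Its log2 signals were 9.56 and 9.16 on day 0, 11.12 and 11.32 on day 1, 12.15 and 12.00 on day 3, 11.93 and 12.05 on day 5, 11.47 and 11.50 on day 7, 11.01 and 10.94 on day 10, and 10.69 and 10.64 on day 14. All overload arrays are above day 0, the highest ones fall on days 3 and 5, and day 14 is the lowest of the overload days. The rise was 1.86 ± 0.12 (SE) on day 1 and 2.71 on day 3, 6.56-fold (adjusted p = 3.9e-09). By day 14 it was 1.31, 48.1% of the largest. The days ranked 3, 5, 7, 1, 10, 14 with no neighbours called different, and day 14 was above day 0.

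Cfb encodes factor B, the protease subunit of the alternative pathway convertase. It read 8.25 and 8.17 on day 0, 8.95 and 9.12 on day 1, 10.16 and 10.06 on day 3, 10.61 and 10.39 on day 5, 10.06 and 9.74 on day 7, 9.94 and 9.67 on day 10, and 10.40 and 10.17 on day 14. Day 0 is lowest, day 1 lies between it and the rest, and day 14 is back above both arrays of days 7 and 10. Cfb was 0.82 ± 0.13 (SE) above day 0 on day 1 and 2.29 above it on day 5, a 4.88-fold rise (adjusted p = 2.2e-08). On day 14 it was 0.48 above day 10 (adjusted p = 0.042) and 2.07 above day 0, so that 90.6% of its largest difference was left. Day 14 stood 0.17 above day 3, which was not called (adjusted p = 0.339).

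C7 encodes the component that joins the nascent membrane attack complex and lets it insert into a membrane. Its log2 signals were 11.05 and 10.66 on day 0, 8.71 and 8.66 on day 1, 8.57 and 8.30 on day 3, 8.63 and 8.35 on day 5, 8.35 and 7.94 on day 7, 8.78 and 8.08 on day 10, and 9.68 and 9.42 on day 14. Every overload array is below both day 0 arrays, and day 14 is above all arrays of days 1 to 10. C7 fell by 2.17 ± 0.22 (SE) on day 1, 4.5-fold lower than on day 0 (adjusted p = 4.2e-06) and the 34th largest fall of all genes. On day 7 it was 6.51-fold lower (difference -2.70, adjusted p = 4e-07). Days 1, 5, 3, 10 and 7 held no neighbours called different. Day 14 was 1.12 above day 10 (adjusted p = 0.0095), the 33rd largest rise of all genes between those days, and remained 1.30 ± 0.22 below day 0.

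Serping1 encodes C1 inhibitor, a serpin that inactivates C1r and C1s and also plasma kallikrein. It read 11.94 and 11.90 on day 0, 11.06 and 11.14 on day 1, 12.18 and 12.13 on day 3, 12.59 and 12.61 on day 5, 12.65 and 12.43 on day 7, 12.66 and 12.53 on day 10, and 12.97 and 12.97 on day 14. Day 1 is the only day whose arrays lie below day 0, and day 14 has the highest arrays. Serping1 fell by 0.82 ± 0.084 (SE) on day 1 (adjusted p = 5.4e-06). On day 5 it was 0.68 above day 0, and on day 14 it was 1.05 above day 0, a 2.07-fold rise (adjusted p = 7.5e-07). The difference of 0.23 on day 3 was called (adjusted p = 0.0361), but not without any 1 of the 4 arrays of days 0 and 3, nor with array medians set equal, where it was 0.14. Day 14 was above day 5, which with days 10 and 7 held no neighbours called different, and day 7 was above day 3, day 3 above day 0 and day 0 above day 1.

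**Figure D2:**
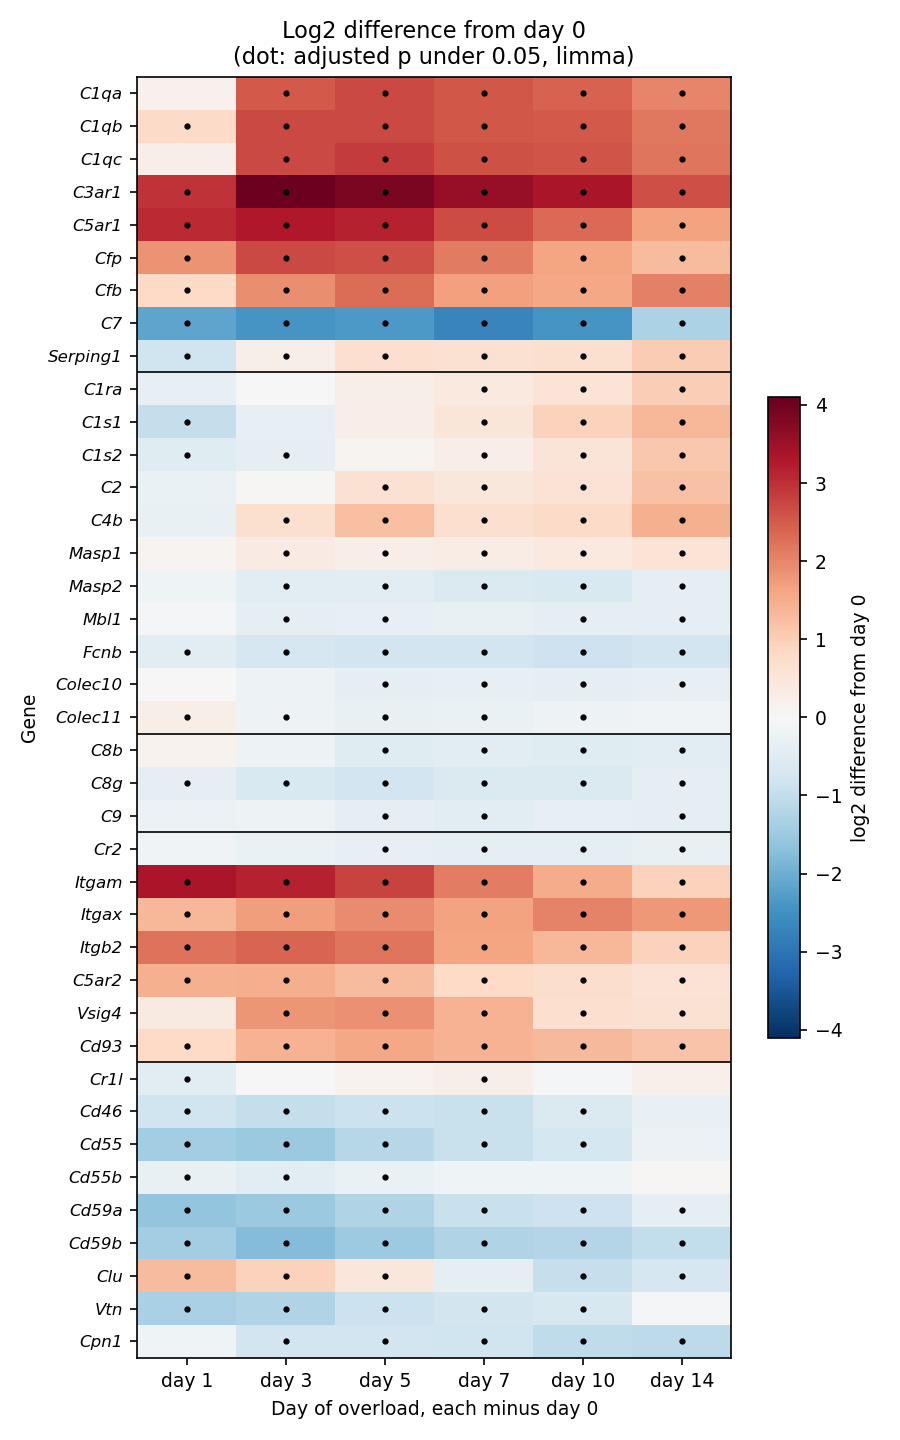
Log2 difference from day 0 (colour, red higher and blue lower) of the 9 members and of named genes of the complement pathway list (rows) on days 1, 3, 5, 7, 10 and 14 (columns), with a dot where limma's adjusted p was under 0.05. The largest member difference is that of C3ar1 on day 3, 4.02, and C7 and the membrane regulators Cd55 and Cd59a are blue on days when C3ar1, C5ar1 and Itgam are red.

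The mean of days 7, 10 and 14 was also set against the mean of days 1 and 3. Over the whole array, 25.2% of genes were higher and 40.4% lower in the late days, with a median difference of -0.10, and with array medians set equal the shares were 20.2% and 51.4%. Of the members 5 were higher late and 3 lower. Serping1 was 1.07 ± 0.054 (SE, 6 late and 4 early arrays) higher late (adjusted p = 8.3e-09), C1qc 0.99 ± 0.082, C1qa 0.98 ± 0.07, C1qb 0.66 ± 0.10 and Cfb 0.43 ± 0.084. C5ar1 was lower late by 0.96 ± 0.085 (difference -0.96, adjusted p = 1.3e-06), Cfp by 0.60 ± 0.076 (difference -0.60) and C3ar1 by 0.32 ± 0.075 (difference -0.32, adjusted p = 0.0032). C7 differed by 0.15 ± 0.14, which was not called (adjusted p = 0.344). On these means both anaphylatoxin receptors and properdin were higher early, and the C1q chains, factor B and C1 inhibitor higher late. Single days did not all follow that order. C3ar1 had a mean of 11.98 on day 1, below 12.55 on day 7 and 12.34 on day 10. Cfp had 11.22 on day 1, below 11.49 on day 7. The 3 C1q chains were low on day 1, which is part of the early mean. On day 3, C1qb (12.92) and C1qc (12.02) had means above those of days 7, 10 and 14, and C1qa (11.46) above those of days 10 and 14. Cfb was also low on day 1, with a mean of 9.03, and had 10.11 on day 3. Its day 3 mean lay above those of days 7 (9.90) and 10 (9.81) and below that of day 14 (10.28).

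**Figure D3:**
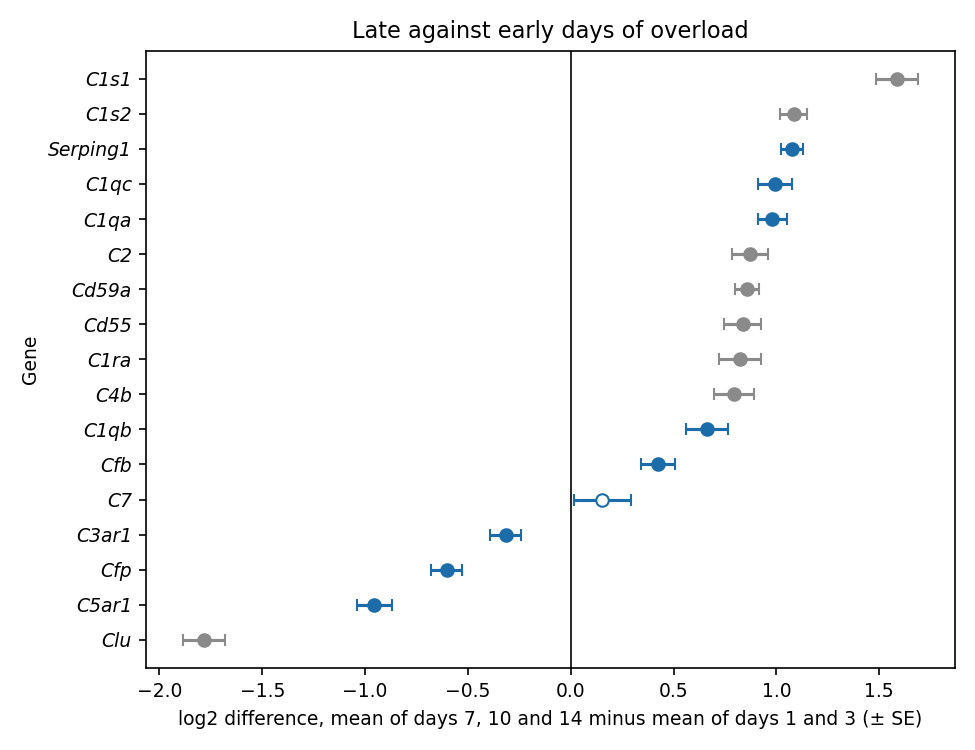
Mean log2 signal of days 7, 10 and 14 minus that of days 1 and 3 (x axis, with bars of 1 SE) for the 9 members and 8 other complement genes (rows), with filled points where limma's adjusted p was under 0.05 and open points otherwise. Serping1 stands highest among the members at 1.07 and C5ar1 lowest at -0.96, while C7 at 0.15 was not called.

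The step between days 1 and 3 and the descent to day 14 were tested directly. On day 3, 7 members were higher than on day 1 and 0 were lower, where the whole array had 19.5% higher and 24.7% lower. C1qa was 2.34, C1qb 1.92 and C1qc 2.49 above day 1, Cfb 1.08, Serping1 1.05, C3ar1 1.04 and Cfp 0.86. C5ar1 and C7, at 0.24 and -0.25, were not called. On day 14, 6 members were lower than on day 3 and 2 were higher, where the whole array had 17.8% lower and 17.4% higher. The lower ones were C5ar1 (-1.65), Cfp (-1.41), C3ar1 (-1.37), C1qb (-0.54), C1qc (-0.52) and C1qa (-0.51), and the higher ones C7 (1.12) and Serping1 (0.82). Between these days the receptors and properdin thus came down by more than 1 log2 unit and the C1q chains by about 0.5.

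The rest of the pathway was read from a list of 45 other complement genes, of which 40 were measured and the rest were not analysed here. On day 1, 20% of the 40 (8 genes) were higher than on day 0 and 27.5% (11 genes) lower, beside 22.3% and 22.6% of all genes. On day 3 the list had 22.5% higher (9 genes) and 32.5% lower (13 genes), beside 24.1% and 26.6%. Day 5 gave 27.5% and 40% (11 and 16 genes), beside 26.4% and 33.7%, and day 7 gave 32.5% and 37.5% (13 and 15 genes), beside 26.6% and 36.3%. Day 10 gave 30% and 45% (12 and 18 genes), beside 25.9% and 34.3%, and day 14 gave 32.5% and 35% (13 and 14 genes), beside 22.9% and 30.5%. Medians of the list lay between -0.22 and -0.06, near the median of all genes. These counts depended on the scaling: with array medians set equal, day 5 had 8 higher genes with 22 lower ones and day 7 had 8 with 24.

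Of 14 measured genes of the classical and lectin pathways, 1 was higher and 3 lower on day 1, where the shares of all genes were 22.3% and 22.6%, and 7 were higher and 5 lower on day 14, where they were 22.9% and 30.5%. C1s1, the protease that C1q and C1r activate, had log2 signals of 10.03 and 9.90 on day 0, 8.79 and 9.19 on day 1, 9.48 and 9.81 on day 3, 10.28 and 10.18 on day 5, 10.67 and 10.24 on day 7, 10.95 and 10.88 on day 10, and 11.29 and 11.40 on day 14. Its day 1 arrays are the lowest and its day 14 arrays the highest, as for Serping1. It fell by 0.98 ± 0.16 (SE) on day 1 (adjusted p = 0.00022) and was 1.37 above day 0 on day 14, a 2.59-fold rise. C1ra, the protease that cleaves C1s, was 1.01 ± 0.16 above day 0 on day 14 and C1s2 1.10 ± 0.10. C2, whose fragment is the protease of the classical convertase, was 1.19 ± 0.14 above day 0 on day 14, and C4b, whose product forms the other part of that convertase, 1.47 ± 0.15, a 2.77-fold rise. These 5 genes were all higher in the late than in the early days, by 1.59 for C1s1, 1.08 for C1s2, 0.87 for C2, 0.82 for C1ra and 0.79 for C4b. For C4b the late and early arrays overlapped, with means of 9.45 on day 3, 9.47 on day 7 and 9.57 on day 10. C1s1 and C1s2, C1ra and C1rb, and C4a and C4b are close copies, so their probes may share signal. The lectin pathway gene Fcnb, ficolin B, was lower on all 6 days (difference -0.43 on day 1, and -0.68 to -0.86 on days 3 to 14). The lectin pathway protease Masp2 was lower on days 3 to 14, with its largest difference, -0.61, on day 10. Masp1, the other lectin pathway protease of the list, was higher on days 3 to 14 (differences 0.28 to 0.56), though the calls on days 3, 5 and 7 were lost without the left array of day 0.

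Of 7 other receptors, 5 were higher and 0 lower on day 1, and 6 were higher on each later day, where 22.9% to 26.6% of all genes were, with medians of 1.37 on day 1, 1.72 on day 3, 1.89 on day 5 and 0.95 on day 14. Itgam, the alpha chain of complement receptor 3, read 8.84 and 7.99 on day 0, 11.74 and 11.81 on day 1, 11.53 and 11.58 on day 3, 11.17 and 11.22 on day 5, 10.43 and 10.57 on day 7, 9.91 and 9.95 on day 10, and 9.39 and 9.35 on day 14. It was highest on day 1, 3.36 ± 0.19 (SE) above day 0, and each later day was lower, to 0.96 above day 0 on day 14. Itgb2, its beta chain, was 2.23 above day 0 on day 1 and 0.95 on day 14, and C5ar2, the other receptor for C5a, 1.44 and 0.60. Itgax, the alpha chain of complement receptor 4, kept 1.79 on day 14 after 1.37 on day 1. Vsig4, a receptor of resident macrophages for C3 fragments, was 0.35 ± 0.17 above day 0 on day 1, which was not called (adjusted p = 0.11), 1.89 above it on day 5 and 0.63 above it on day 14. The call on day 14 was lost without either right array of days 0 and 14. Cr2, a receptor of B cells, was the 1 receptor of the list with lower calls, on days 5, 7, 10 and 14. Its difference of -0.38 on day 7 was not called after quantile normalization or without the left array of day 0 or of day 7. The signal of Cr2 was low, with day means of 5.88 to 6.26, and the F test did not call it (adjusted p = 0.054).

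Among 13 regulators of complement, 7 were lower and 1 higher on each of days 1 to 7, 8 were lower and 0 higher on day 10, and 4 were lower on day 14, where between 22.6% and 36.3% of all genes were lower on these days. Cd59a, a membrane protein that blocks the membrane attack complex, had log2 signals of 11.30 and 11.29 on day 0, 9.71 and 9.66 on day 1, 9.82 and 9.71 on day 3, 10.17 and 9.97 on day 5, 10.47 and 10.32 on day 7, 10.51 and 10.38 on day 10, and 10.85 and 10.96 on day 14. It was lowest on day 1, 3.05-fold below day 0 (difference -1.61 ± 0.091, adjusted p = 4e-08), and was 0.39 below day 0 on day 14 (difference -0.39). Cd55, decay-accelerating factor, which takes convertases apart, was 1.51 ± 0.14 below day 0 on day 3 (difference -1.51) and 0.25 below it on day 14, which was not called (difference -0.25, adjusted p = 0.14). Vtn, vitronectin, which binds the terminal complex, differed by -1.33 on day 1 and by -0.10 on day 14, where it was not called (adjusted p = 0.57). Cd55 and Vtn were called lower on each of days 1 to 10, with differences of -0.73 and -0.65 on day 10. Cd59b, a close copy of Cd59a, was lower on all 6 days, and Cd46 on days 1 to 10. Clu, clusterin, which also binds the terminal complex, was 1.31 ± 0.16 above day 0 on day 1 and 0.93 below it on day 10 (difference -0.93), and its late days lay 1.78 below its early ones (difference -1.78). Cr1l, the rodent regulator Crry, was 0.43 below day 0 on day 1 (difference -0.43) and 0.22 above it on day 14, which was not called (adjusted p = 0.061).

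Of 6 other terminal components, 0 were higher from day 3 on, and 4 were lower on day 14, where 30.5% of all genes were. C8g, the gamma chain of C8, was lower on all 6 days, most on day 5 (difference -0.79 ± 0.10), though the calls on days 1 and 14 were lost without the left array of day 0. The fall of C7 on day 1 was the largest of the terminal genes measured, and C8g, the other one with a lower call that day, differed by -0.38. The signals were unlike from the start: C7 had a mean of 10.85 on day 0 and the others 6.24 (C9) to 7.71 (C8g). Genes with so low a signal had little room to fall, so the comparison of sizes says little.

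**Figure D4:**
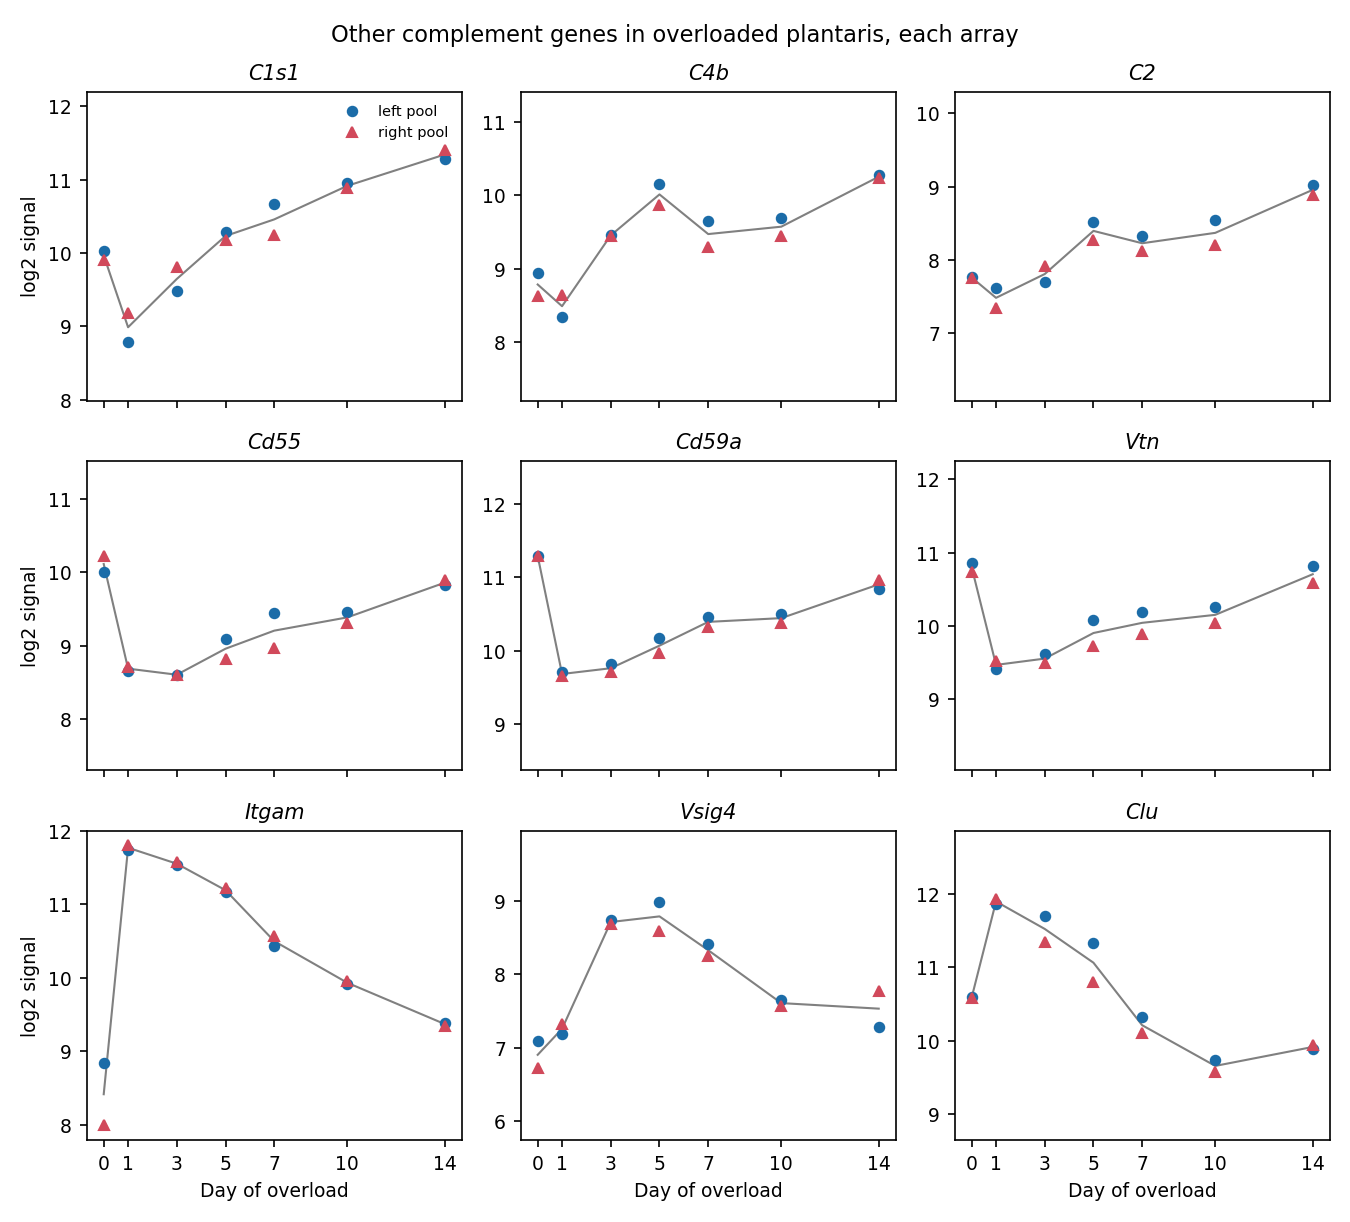
Log2 signal (y axis) of 9 other complement genes by day of overload (x axis), with circles for left pools, triangles for right pools and a line through the mean of both. C1s1, C4b and C2 end highest on day 14, Cd55, Cd59a and Vtn dip on days 1 and 3, Itgam and Clu peak on day 1, and Vsig4 peaks on day 5.

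Markers of cell types moved on the same days. Over all genes, 22.3% (day 1) to 26.6% (day 7) were higher than on day 0 and 22.6% (day 1) to 36.3% (day 7) lower. In lists this short, counts of 1 to 3 genes do not stand apart from these shares. All 8 macrophage markers were higher than on day 0 on every day, and their mean log2 signal was 11.80 to 11.83 on day 3 and 10.71 to 10.84 on day 14, against 8.77 to 9.09 on day 0. Of 5 resident macrophage markers, 1 was higher and 0 lower on day 1, 4 were higher and 1 lower on days 3 and 5, 2 and 1 on days 7 and 14, and 2 and 3 on day 10, with a mean of 9.80 to 9.87 on day 3, against 8.54 to 8.63 on day 0. These markers differed among themselves: Mrc1 was 1.76 above day 0 on day 1 already, Folr2 differed by -0.19 on day 1 (not called) and by 1.98 on day 3, and Timd4 was lower on days 3 to 14, by -0.24 on day 3. All 7 neutrophil markers were higher on day 1, with a mean of 11.55 to 11.70, against 9.14 to 9.70 on day 0, and 6 of 7 were lower on day 14. In between they split. On day 3 Cxcr2 differed from day 0 by 2.44, Csf3r by 2.30, Mmp9 by 1.73 and Ly6g by -0.97. S100a8, S100a9 and Retnlg were not called that day. Mmp9 was still 1.11 above day 0 on day 10. Of 7 fibroblast markers, 2 were higher and 4 lower on day 1 and 7 were higher on day 14, with a mean of 12.34 to 12.42 on day 14, against 10.49 to 10.58 on day 0. Of 5 endothelial markers, 1 was higher and 2 lower on day 1, and 3 were higher and 1 lower on day 14, with a mean of 10.04 to 10.84 over all arrays. The 4 measured genes of liver or plasma were lower on every day, with a mean of 6.92 to 7.12 on day 14, against 8.07 to 8.45 on day 0. Most of that fall was Alb, with a difference of -3.12 on day 14, beside -0.68 for Apoa1, -0.59 for Ttr and -0.56 for Fgb. All 5 adipocyte markers were lower on day 1, with a mean of 8.23 to 8.39, against 8.68 to 8.94 on day 0, 3 were lower on days 7 and 10, and on day 14 1 was higher and 0 lower, with a mean of 8.96 to 9.16. Of 6 muscle fibre markers, 1 was lower on day 1, 5 on days 3 to 10 and 3 on day 14, and their mean lay at 13.44 or more on every array, so the tissue reads as muscle throughout. The part of these cell types in the members' differences was not tested.

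**Figure D5:**
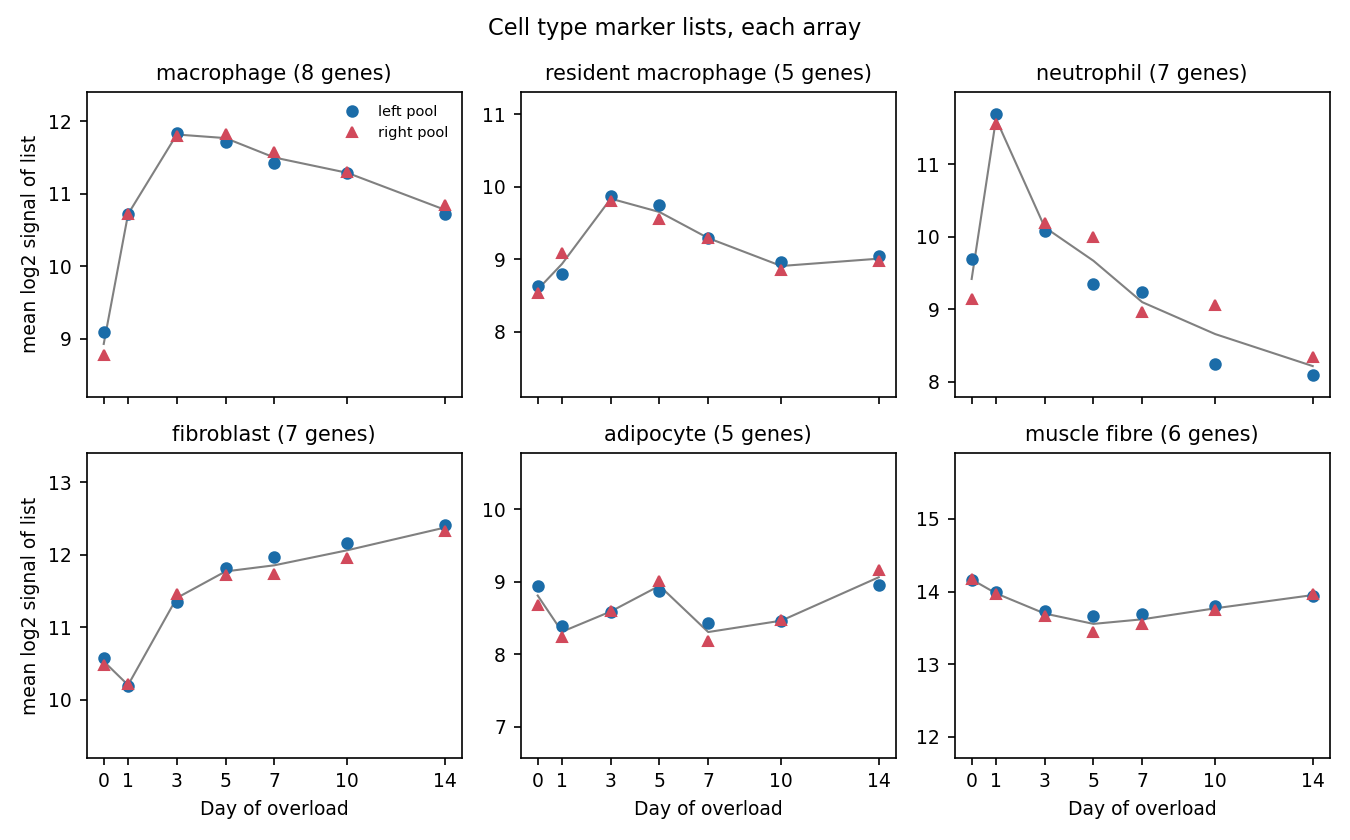
Mean log2 signal (y axis) of 6 lists of cell type markers by day of overload (x axis), with circles for left pools, triangles for right pools and a line through the mean of both. Macrophage markers are highest on days 3 and 5, neutrophil markers on day 1 and fibroblast markers on day 14.

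The genes whose profiles were most like each member were sought over the 14 arrays by Pearson's r, among 14819 genes called by the F test, which leaves out the members, predicted genes and microRNA genes. Such an r is a description, since all 14 arrays share the days. For C1qb the nearest were Ly86 (r = 0.997) and Adgre1, the macrophage marker F4/80 (r = 0.996). Adgre1 was 0.93 above day 0 on day 1 and 2.96 on day 3, beside 0.79 and 2.71 for C1qb. C1qa and C1qc shared Plod1, a collagen lysyl hydroxylase (r = 0.993 with each). For C3ar1 the nearest were Cd68, a lysosomal protein of macrophages, and Cfl1, cofilin (both r = 0.995). For C5ar1 they were Vav1, Il4ra and Stat6 (r = 0.994 each), and for Cfp Rab5c (0.993) and F13a1, a coagulation factor subunit made by macrophages (0.989). For Cfb it was Ciita, the transactivator of class II antigen presentation genes (0.985), for C7 Gsn, gelsolin (0.982), and for Serping1 Cd34 (0.998), a surface protein of endothelial and stromal progenitor cells. When the 7 day means were used instead, 10 of the 27 nearest genes were shared. Between members, C5ar1 and Cfp correlated at 0.964, C3ar1 and Cfp at 0.957, C7 and C3ar1 at -0.932, C1qa and C5ar1 at 0.557, and Serping1 and C5ar1 at -0.06.

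Left and right pools were set against each other with the day as a block. No member was called, and limma called 0% of all genes after adjustment. An unadjusted p under 0.05 was found for 2092 genes, 10.5% of all, and for 2 of the 9 members. C7 was lower in the right than in the left pool on 7 of 7 days, by 0.33 ± 0.064 (SE, right minus left -0.33, adjusted p = 0.282). Cfb was lower in the right pool on 6 of 7 days (right minus left -0.15, adjusted p = 0.429).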

How the data were processed

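RNA of 14 pooled muscle samples was hybridised to 14 arrays, 1 left and 1 right pool for each of 7 days. What the authors deposited was taken as a log2 signal for each probe set, normalized between arrays. This was read from the range of the values and the near-equal array medians, since no source used here states the method. The submitters' processing notes name Partek, with no version. The labels state the RNA input as 100 ng in one place and 250 ng in another. The genome build of the array annotation is not stated. Values carry no detection call, and precision is limited by the number of arrays. Array medians lay between 7.91 and 7.97, and left and right of 1 day had a correlation across genes of 0.994 to 0.997.

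Of 35557 probe sets, the annotation gives 1 symbol for 21789, several for 1621 and none for 12147. Only the first kind was used, and for 999 genes with more than 1 probe set the one with the highest mean was kept, which left 19938 genes. Low values were not filtered out. In R 4.3.3, limma 3.58.1 fitted the day as group over all 14 arrays (7 residual degrees of freedom, prior 4.95, median SE of a difference 0.097). P-values are two-sided and adjusted by Benjamini-Hochberg over all genes. The fitting code was checked on simulated data. The members, lists and tests were chosen with earlier results of these data known. Named genes of the pathway list were those called in the same direction on at least 3 days with arrays that did not overlap day 0, plus 8 named whatever their values. From these a selection is described. Alternatives were quantile normalization, equal array medians, leaving out the 25% of genes with the lowest signal, other handling of probe sets, array weights, an intensity trend fitted robustly, the fit of only the arrays compared, the side as a block, an adjusted p under 0.01, a change of at least 2-fold, and each array left out in turn.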

Additional observations from a re-analysis of the deposited data

Results flagged for a closer look

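C1qc on day 1 moved in opposite directions on the 2 sides: the right pool was 0.55 above its own day 0 array, and the left pool differed by -0.10 from its own. Right minus left, this is a difference in change of 0.64 on the log2 scale. Such a shift was not particular to C1qc. Right minus left went from -0.58 on day 0 to 0.28 on day 1 for C1qb, and from -0.40 to 0.20 for Cfp. It was below 0 on day 0 for every member and rose to day 1 for every member. With 1 array a side and day, these differences between sides were not tested.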

How the results depend on the processing

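In the comparisons with day 0 and of late with early days, members kept their direction under all 25 alternatives run, 14 of which left out 1 array. Many of these could not have changed it. Each member has 1 probe set, and other cutoffs or error models leave the difference itself as it was. A direction could move mainly with quantile normalization, equal array medians or an array of the compared days left out. The 4 member counts that moved by over 1.5 times did so with a change of at least 2-fold required, where 3 members were higher and 1 lower on day 1, and 1 higher and 0 lower in the late days. Of 1575 values of single members 1552 kept their call, 22 lost it and 1, C1qc on day 1, gained it. Serping1 on day 3 lost its call with equal array medians, array weights, only the arrays compared, an adjusted p under 0.01 and without each of 4 arrays. Setting array medians equal lowered the median difference of all genes by 0.12 to 0.14 on days 5 to 14 (shifts of -0.13 on day 5, -0.14 on days 7 and 10 and -0.12 on day 14). Of the pathway list, 13 higher and 15 lower genes on day 7 became 8 and 24 with equal array medians, 7 higher at an adjusted p under 0.01 and 7 higher without the left array of day 7. On day 14, 14 lower genes became 8 at an adjusted p under 0.01 and 9 without the left array of day 0, and 14 genes lower late became 9 with quantile normalization. A change of at least 2-fold left 4 to 7 of the list higher on the 6 days and 1 to 4 lower. With the side as a replicate block the members counted higher and lower were 5 and 2 on day 1 and 8 and 1 on each later day, the same counts as without it. Right minus left differences of different days correlated at -0.19 to 0.35 across genes, 6 of 21 pairs over 0.1. With 2 pooled arrays a day, small differences are at the limit of the data.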
